A study of Homo sapiens with 4 samples.

Results

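The expression of crizotinib's target kinases and their partners was examined in U87, a long-established cell line from a human glioblastoma. Crizotinib is a small molecule that blocks the kinase activity of MET, ALK and ROS1. The genes are a list by name and function: the receptor kinases MET, MST1R, ALK, LTK and ROS1, the ligands HGF and MST1, the ligand-activating protease HGFAC, the docking protein GAB1 and the ubiquitin ligase CBL. Of these 10 core genes, 9 had a feature among the 23786 features of the array, and MST1 was not analysed here. There were 4 arrays, 1 per condition, all from U87 cells grown in medium with serum. The first culture received 2 µM crizotinib for 24 hours, and its control received vehicle for 24 hours. The second culture, called crizotinib-resistant in the labels, was kept in 1 µM crizotinib for 21 days. Its control, called crizotinib-sensitive, was grown the same way without drug for 21 days. This assignment of the 21-day arrays is a reading of the protocol, which gives both arms the same culture name, and the sign of each 21-day difference rests on it.

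MET is the receptor for HGF, a factor made in an inactive form by mesenchymal cells and cut by proteases such as HGFAC into the active ligand. Once bound, MET phosphorylates the docking protein GAB1, which passes the signal to PI3 kinase and ERK, and CBL then marks the receptor for breakdown. MST1R, also called RON, is the nearest relative of MET and binds MST1. ALK and LTK form another family with ligands of their own, and ROS1 is a receptor best known in cancer from gene fusions. In glioblastoma, MET with its ligand HGF is a known driver of growth and invasion, and a cell that makes both can stimulate itself. The drug acts on the kinase proteins, whereas the arrays measured RNA, so none of the values below is a measure of kinase activity.

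Values are log2 expression per gene, on which a difference of 1 is a 2-fold difference. Array medians lay between 4.92 and 4.98. A gene was counted as different at 2-fold when the higher array of the comparison reached 4.96, which is the median over all arrays and features. No condition was repeated, so differences between single arrays carry no error and no test, and the number of arrays limits their precision. Tests came from limma fits across all arrays, in which 11891 features passed the filter on their mean. The typical residual SD in the fit with the pair as a covariate was 0.213 on the log2 scale, which is not a spread of replicates. Of 10 markers of glial and glioma cells, 4 (NES, VIM, CD44 and SOX9) lay above the filter on all arrays. The defining glial markers GFAP, S100B, OLIG2, AQP4 and SOX2 lay below it on all arrays. Of 6 fibroblast markers, 3 (COL1A1, COL1A2 and LUM) lay above it on all arrays. Epithelial, leukocyte and endothelial lists had 1 marker each above it throughout, KRT8, CD68 and KDR.

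In both crizotinib cultures HGF was lower than in the matched control, and MET was slightly lower. GAB1 was higher after 24 hours, CBL differed by -0.01 and -0.04, and ROS1 differed between the drug-free cultures by more than in either crizotinib pair. MST1R, ALK, LTK and HGFAC stayed below the level filter on all 4 arrays, so 5 of the 9 measured core genes passed it in each comparison. At 2-fold, 0 of these 5 genes differed in the 24-hour pair, against 5.00% of the 12468 features that passed the filter. In the 21-day pair 1 of the 5 differed, HGF, against 8.05% of 12450 features. Between the drug-free arrays 1 of the 5 differed, ROS1, against 3.06% of 12397 features. The median difference of the 9 genes was -0.13 in the 24-hour pair and 0.15 in the 21-day pair, beside -0.01 and 0.01 over all features. These medians are the values of LTK at 24 hours and HGFAC at 21 days, both under the filter, so they describe no shift of the expressed genes.

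**Figure D1:**
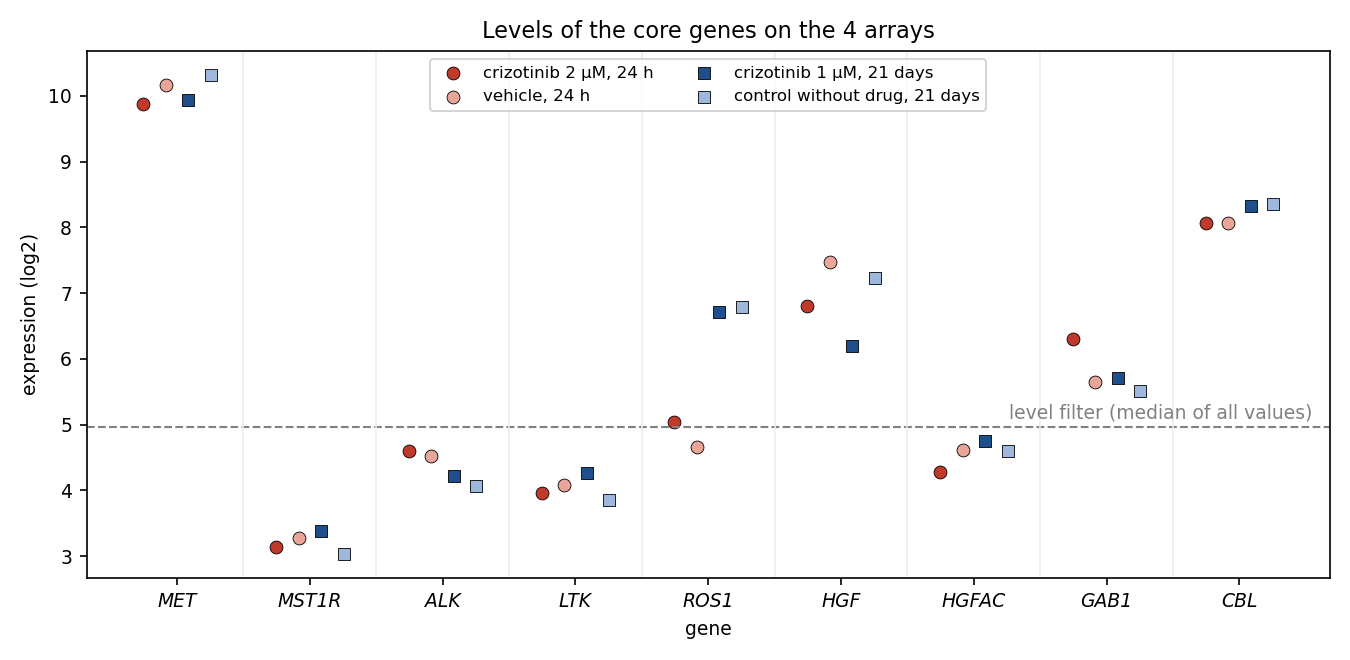
Log2 expression (vertical axis) of the 9 measured genes (horizontal axis) on the 4 arrays, 1 point per array, with the level filter of 4.96 as a dashed line. HGF is lower on both crizotinib arrays than on both arrays without drug, ROS1 is higher on both 21-day arrays than on both 24-hour arrays, and 4 genes lie under the line.

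MET (Entrez gene 4233), the receptor that crizotinib was developed against, measured 9.88 in 24-hour crizotinib cells and 10.17 in vehicle cells. In 21-day crizotinib cells it measured 9.94, against 10.32 in the 21-day control. Both drug arrays therefore lay below both drug-free arrays, an order that 20.9% of the 13045 features above the filter on any array shared. The differences were -0.29 and -0.38, a 1.22-fold and a 1.30-fold lower level. The drug-free arrays themselves differed by 0.15, the 21-day control being higher. With both pairs in a limma fit and the pair as a covariate, the change of MET was -0.33 (SE 0.19, adjusted p = 0.489). Against both drug-free arrays as a single group, limma gave -0.37 at 24 hours (SE 0.23, adjusted p = 0.482) and -0.30 at 21 days (SE 0.23, adjusted p = 0.567). A difference of MET was thus not detectable in these fits of 4 arrays, which hold no replicate of a condition.

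The promoters of MET, HGF and ROS1, the genes on which the results turn, are shown as the 250 bases before the start of the gene, from RefSeq (GRCh38.p14). Of the 10 core genes, 8 had an entry. Capitals mark any match on either strand to the 5 motifs searched, which are spelled out after the sequences. The MET promoter lies at chr7:116671946-116672195 on the plus strand.
MET: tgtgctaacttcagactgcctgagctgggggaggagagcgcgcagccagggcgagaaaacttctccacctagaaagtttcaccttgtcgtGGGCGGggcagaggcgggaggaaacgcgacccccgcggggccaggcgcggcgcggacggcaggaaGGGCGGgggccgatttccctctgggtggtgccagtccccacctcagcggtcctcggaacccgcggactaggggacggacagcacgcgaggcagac
The HGF promoter lies at chr7:81770048-81770297 on the minus strand.
HGF: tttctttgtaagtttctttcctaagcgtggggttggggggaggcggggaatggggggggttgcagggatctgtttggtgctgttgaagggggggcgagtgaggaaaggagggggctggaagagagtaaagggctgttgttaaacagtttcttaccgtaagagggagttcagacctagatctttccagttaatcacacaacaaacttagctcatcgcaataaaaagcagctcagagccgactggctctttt
The ROS1 promoter lies at chr6:117425943-117426192 on the minus strand.
ROS1: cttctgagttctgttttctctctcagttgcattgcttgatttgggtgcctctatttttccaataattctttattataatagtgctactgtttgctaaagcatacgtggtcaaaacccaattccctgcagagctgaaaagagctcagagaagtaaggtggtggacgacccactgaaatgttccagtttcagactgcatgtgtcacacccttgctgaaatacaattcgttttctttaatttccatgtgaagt
MET has 24 CpG and 2 GC boxes in a window of 68.4% GC. HGF has 6 CpG and no match in a window of 50.0% GC. ROS1 has 3 CpG and no match in a window of 40.0% GC. Over all 35116 windows of this length the median was 11 CpG and 58.0% GC. The GC box was searched as GGGCGG, which 42.6% of all windows hold. The TATA box was searched as TATAAA, which 10.7% of them hold. The AP-1 site was searched as TGAGTCA, with a share of 4.2%. The E-box was searched as CACGTG, with a share of 6.34%. The ETS core was searched as CCGGAA, with a share of 14.5%. No motif overlapped another in the 3 sequences shown. The window of MET is thus above the median in GC, and those of HGF and ROS1 are below it.

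HGF (Entrez gene 3082), the ligand of MET, measured 6.80 in 24-hour crizotinib cells and 7.47 in vehicle cells. After 21 days in crizotinib it measured 6.20, against 7.23 in the 21-day control. Both drug arrays lay below both drug-free arrays, with a gap of 0.44 between the nearest values. The differences were -0.67 after 24 hours, 1.59-fold lower, and -1.03 after 21 days, 2.04-fold lower. At least 2-fold lower in the 21-day pair were 4.08% of the features past the filter. At 1.5-fold, 4.15% of the 11873 features above the filter in both pairs were lower in both, HGF among them. The 21-day control stood 0.24 below the vehicle array. In limma the change over both pairs was -0.85 (SE 0.21, adjusted p = 0.206), with an unadjusted p of 0.00868. Against both drug-free arrays limma gave -0.55 at 24 hours (SE 0.24, adjusted p = 0.342) and -1.15 at 21 days (SE 0.24, adjusted p = 0.112). HGF did not pass the threshold over all features tested in any of these limma fits. Its 21-day difference lies just past the 2-fold threshold, and quantile normalization of the deposited values anew placed it just under, at -0.98.

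HGF is typical of mesenchymal cells, and fibroblast markers also differed in the 21-day pair. The mean level of 6 fibroblast markers was 6.42 in 24-hour crizotinib cells and 6.01 in vehicle cells. It was 7.91 in 21-day crizotinib cells and 6.40 in the 21-day control. That mean leans on DCN, which differed by 5.02 in the 21-day pair, while COL1A2 differed by 0.19 and COL1A1 by -1.16. The median difference of the 6 was 1.21. In the 21-day pair 3 of the 6 were at least 2-fold higher (DCN, LUM and PDGFRA) and 1 at least 2-fold lower (COL1A1), against 8.05% of features in either direction. DCN and PDGFRA were under the filter in the 21-day control, at 3.27 and 3.97, and passed it through the crizotinib array. The direction of 5 of the 6 markers in that pair is opposite to that of HGF, and their part in the result was not tested. All 4 arrays came from U87 cells, so the markers are read as genes of that line and not as a count of fibroblasts. In bulk RNA, a shift in the share of cells that express a gene and a change of RNA per cell cannot be told apart.

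The features whose values followed those of HGF most closely over the 4 arrays, each centred on its own mean, were VCAN at a distance of 0.06, PARP1 at 0.07 and H2AZ1 at 0.07. They were chosen among 10916 candidates. VCAN, the matrix proteoglycan versican, differed by -0.60 and -1.02 in the 24-hour and the 21-day pair. PARP1, a DNA damage sensor, differed by -0.61 and -1.06, and the histone variant gene H2AZ1 by -0.69 and -1.13. For MET the closest were WDR73, POLR1F and SEH1L, each at a distance of 0.02. WDR73, for example, differed by -0.27 and -0.38. Likeness over 4 arrays describes these values only.

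ROS1 (Entrez gene 6098) measured 5.04 in 24-hour crizotinib cells and 4.65 in vehicle cells. The 21-day crizotinib cells had 6.72, against 6.79 in the 21-day control. Its differences in the crizotinib pairs were 0.39 and -0.08, while the drug-free arrays differed by 2.14, with the 21-day control 4.41-fold above vehicle. The vehicle value lay under the filter of 4.96, so ROS1 passed it in the drug-free comparison through the 21-day control. In the 24-hour pair ROS1 passed it through the crizotinib array, at 5.04. The lower of the 21-day arrays lay 1.67 above the higher of the 24-hour arrays. At 2-fold, 92 of the 13045 features above the filter on any array (0.705%) had both 21-day arrays above both 24-hour arrays. No replicate exists for either drug-free culture, and culture time, passage and array cannot be told apart. Any fold against the control of the other pair would therefore mix culture with drug. Against the 21-day control, for example, the 24-hour crizotinib array stood at -1.75, and against the vehicle array the 21-day crizotinib array stood at 2.06. The limma change over both pairs was 0.16 (SE 0.22, adjusted p = 0.797). Against both drug-free arrays limma gave -0.68 at 24 hours and 0.99 at 21 days. Fits of that kind use the control of the other pair as well, so they mix culture with drug, for the other genes too.

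ROS1 lies on chromosome 6 between VGLL2 and DCBLD1, with GOPC, the partner in a known ROS1 fusion of glioma, as the next gene beyond DCBLD1. These neighbours were looked at after the ROS1 values were seen. DCBLD1, a membrane protein gene, measured 8.21 in the 21-day control and 7.64 in the vehicle culture. GOPC, a Golgi protein gene, measured 8.88 in the 21-day control and 8.51 in the vehicle culture. The differences of 0.57 and 0.38 had the same sign as that of ROS1 and were smaller. VGLL2 on the other side differed by 0.31 and stayed below the level filter on all arrays, and NUS1, beyond GOPC, by 0.05. None of the 8 measured neighbours, 4 on each side, differed by 2-fold between the drug-free arrays. A summary value per gene cannot show a fusion or a truncated transcript.

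**Figure D2:**
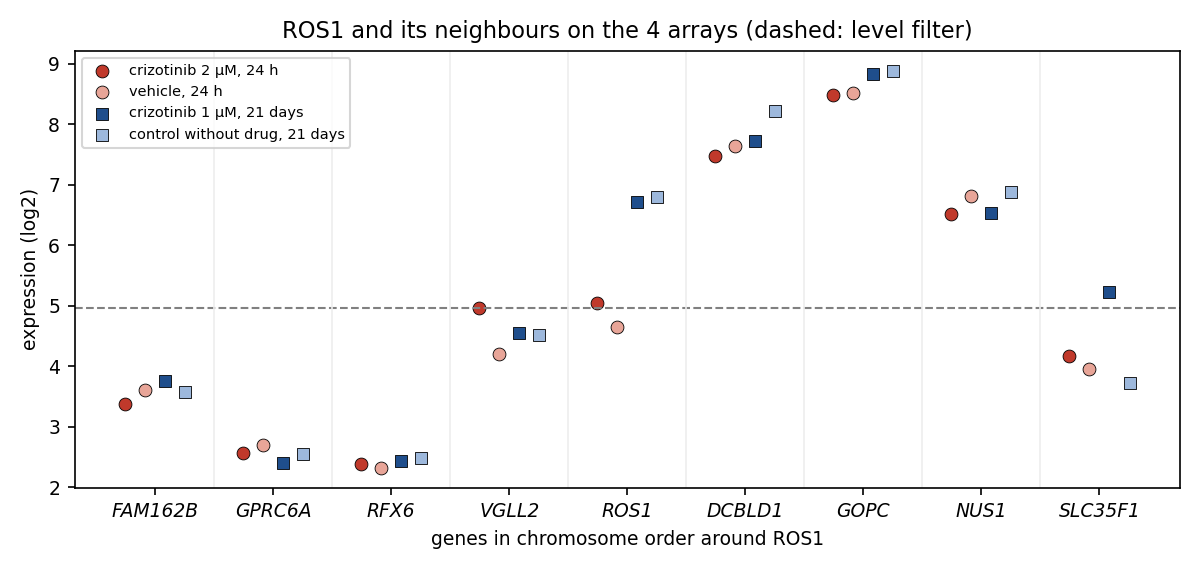
Log2 expression (vertical axis) of ROS1 and the 4 measured protein-coding genes on either side, in chromosome order, on the 4 arrays, 1 point per array. ROS1 parts the 21-day from the 24-hour arrays by at least 1.67, while DCBLD1 and GOPC show smaller gaps between the drug-free arrays, 0.57 and 0.38.

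The other kinases of the group lay under the level filter. On every array ALK and LTK lay between the lower quartile, which ran from 3.46 to 3.52, and the median, and MST1R lay under the lower quartile. ALK (Entrez gene 238) measured 4.60 in 24-hour crizotinib cells and 4.52 in vehicle cells, and 4.22 in 21-day crizotinib cells and 4.07 in the 21-day control. Both 21-day values lay below both 24-hour values, by at least 0.31. LTK (Entrez gene 4058) measured 3.95 in 24-hour crizotinib cells and 4.08 in vehicle cells, and 4.27 in 21-day crizotinib cells and 3.85 in the 21-day control. MST1R (Entrez gene 4486), the receptor related to MET, measured 3.13 in 24-hour crizotinib cells and 3.28 in vehicle cells. It measured 3.38 in 21-day crizotinib cells and 3.03 in the 21-day control. The differences of these 3 genes in the crizotinib pairs ran from -0.15 to 0.42. Without detection calls none can be called absent. The limma fits with the level filter did not include them, and their values in the fits without it are not given here.

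HGFAC (Entrez gene 3083), the protease that activates HGF, was also below the filter. It measured 4.28 in 24-hour crizotinib cells and 4.62 in vehicle cells, and 4.75 in 21-day crizotinib cells and 4.60 in the 21-day control. The 24-hour crizotinib array was the lowest of the 4.

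GAB1 (Entrez gene 2549), the docking protein that MET phosphorylates, measured 6.30 in 24-hour crizotinib cells and 5.64 in vehicle cells. In 21-day crizotinib cells it measured 5.71, against 5.51 in the 21-day control. The 24-hour crizotinib array stood apart and the other 3 lay within 0.20 of each other. Its 24-hour difference of 0.66 was 1.58-fold. At least 1.5-fold higher in that pair were 10.2% of the features past the filter. In limma, GAB1 was 0.73 higher at 24 hours against both drug-free arrays (SE 0.23, adjusted p = 0.245), and 0.13 at 21 days (SE 0.23, adjusted p = 0.811). CBL (Entrez gene 867), the ubiquitin ligase, measured 8.06 in 24-hour crizotinib cells and 8.07 in vehicle cells. After 21 days in crizotinib it measured 8.32, against 8.36 in the 21-day control. Its 4 values lay within 0.29, with both 21-day arrays above both 24-hour arrays. The limma change over both pairs was -0.02 (SE 0.19, adjusted p = 0.977).

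**Figure D3:**
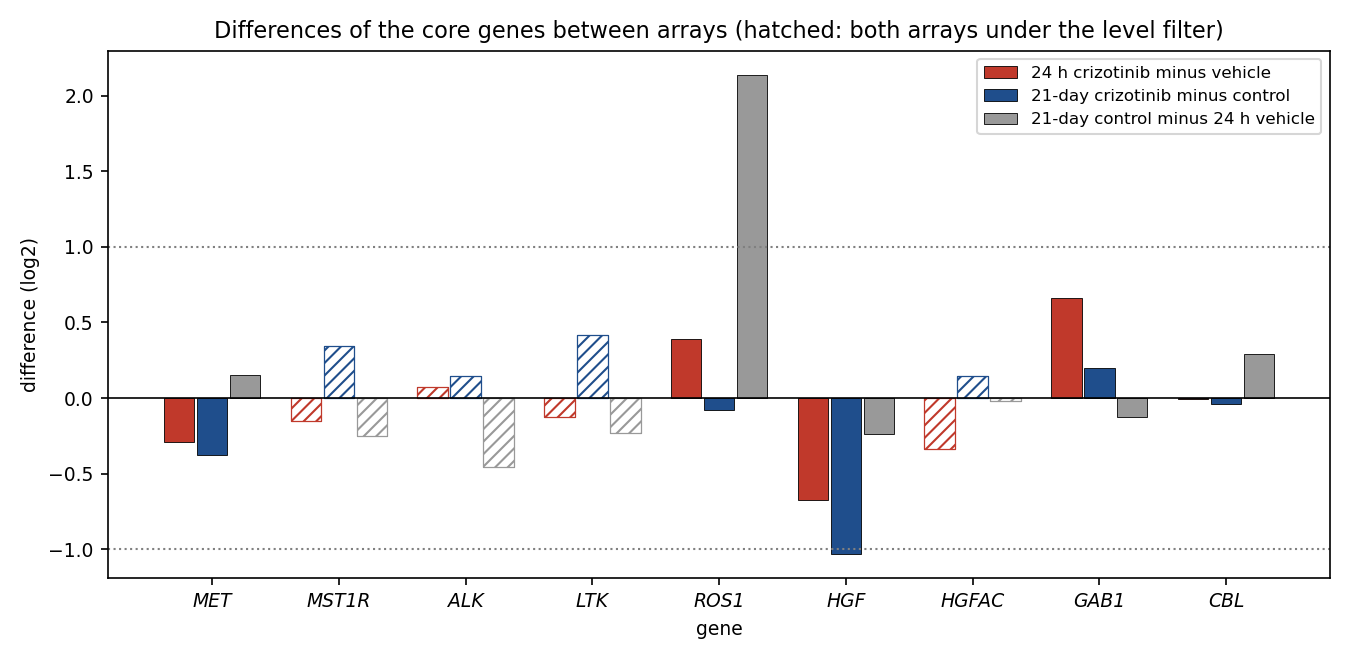
Differences between arrays (log2, vertical axis) for the 9 genes in the 24-hour pair, the 21-day pair and between the drug-free arrays, as bars from 0. Dotted lines mark 2-fold, and hatched bars have both arrays under the level filter. HGF passes the lower line only at 21 days, with -1.03, and ROS1 the upper line only between the drug-free arrays, with 2.14.

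Genes that act with these kinases were taken from 8 lists of 95 genes, of which 87 had a feature. They are described at 1.5-fold as well, a size reached by 10.2% of features upward and 8.75% downward in the 24-hour pair. In the 21-day pair these shares were 10.7% and 11.2%. In the fit over both pairs limma called 0 of 11891 features (0.00%), while 1737 had an unadjusted p under 0.05. The fits against both drug-free arrays called 1 feature (0.00841%) at 24 hours and 177 (1.49%) at 21 days, and none of the 5 core genes tested or the 31 named partner genes tested was among them.

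The list of receptor turnover held the 1 partner gene of 87 that was at least 2-fold higher in both crizotinib pairs. CBLB, the relative of CBL that also ubiquitinates activated receptors, measured 9.28 in 24-hour crizotinib cells and 7.72 in vehicle cells. The 21-day crizotinib cells had 8.73, against 7.40 in the 21-day control. The drug arrays lay above the drug-free arrays by at least 1.01, an order that 18.4% of features above the filter on any array shared at some gap. Its differences were 1.55 and 1.33, and 0.665% of features above the filter in both pairs were at least 2-fold higher in both. In limma the change over both pairs was 1.44 (SE 0.20, adjusted p = 0.153), and CBLB did not pass the threshold. Its relative CBL differed by -0.01 and -0.04, and the contrast between the genes was not tested.

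The rest of the turnover list had few large differences. Of its 11 measured genes, CBLB was the 1 at least 1.5-fold higher at 24 hours, none was lower, and 3 were higher at 21 days. The others at 21 days were TIMP3 and TIMP1, inhibitors of the metalloproteases that shed receptors. TIMP3 measured 8.37 in 21-day crizotinib cells and 5.33 in the 21-day control, but 8.65 in 24-hour crizotinib cells and 8.33 in vehicle cells. The 21-day control is the array that stood apart for TIMP3. TIMP1 measured 11.95 in 21-day crizotinib cells and 10.95 in the 21-day control, and differed by -0.17 in the 24-hour pair. SH3GL2, an endocytic adaptor, lay at or below 2.95 on all arrays.

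Among 12 membrane partners of MET, 2 were at least 1.5-fold higher and 2 lower at 24 hours, and 3 were higher and none lower at 21 days. PLXNB3, a plexin of the family that associates with MET, measured 6.11 in 24-hour crizotinib cells and 5.45 in vehicle cells. In 21-day crizotinib cells it measured 6.76, against 5.75 in the 21-day control. Its drug arrays lay above its drug-free arrays by at least 0.36, and the limma change over both pairs was 0.84 (SE 0.21, adjusted p = 0.209). Its relative PLXNB2 differed by 0.62 at 24 hours and 0.49 at 21 days. Lower at 24 hours were SDC1, a heparan sulfate proteoglycan, at -0.74 and CD44, a MET co-receptor, at -0.60. At 21 days they differed by -0.42 and 0.13. LRIG1, an inhibitor of receptor kinases, was 0.69 higher at 21 days. Decorin (DCN), a matrix proteoglycan that binds MET and restrains it, measured 8.29 in 21-day crizotinib cells and 3.27, under the filter, in the 21-day control. ITGB4, an integrin subunit, lay at or below 4.15 on all arrays.

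Among the 10 proteases and inhibitors that set HGF activation, 3 passed the filter in each pair. PLAU, the protease urokinase, measured 7.94 in 24-hour crizotinib cells and 10.26 in vehicle cells. After 21 days in crizotinib it measured 9.85, against 9.94 in the 21-day control. PLAU was thus low on the 24-hour crizotinib array alone, by 2.31 against vehicle. PLAT, tissue plasminogen activator, was 0.92 higher in 21-day crizotinib cells and 0.14 higher at 24 hours. KLKB1, plasma kallikrein, lay at or below 3.01 throughout.

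Of 14 measured adaptors and effectors, 2 were at least 1.5-fold higher and none lower at 24 hours. PIK3R1, the regulatory subunit of PI3 kinase, was at 0.96 and SOS1, the exchange factor that activates RAS, at 0.78. At 21 days they stood at 0.27 and 0.01. The kinase SRC was higher at 21 days, by 0.82, and IRS1, the insulin receptor substrate, was lower, at -0.87. GAB2, the relative of GAB1, measured 4.49 in 24-hour crizotinib cells and 3.50 in vehicle cells. The 21-day crizotinib cells had 4.94, against 4.08 in the 21-day control. All its values lay under the filter, so its differences of 0.99 and 0.86 were not counted. PTPN11, the phosphatase SHP2 that GAB1 recruits, differed by -0.10 and -0.34.

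The ligands of ALK, LTK and ROS1 and their phosphatases had 3 of 8 genes above the filter. None was 1.5-fold changed at 24 hours. PTN, the growth factor pleiotrophin, measured 7.47 in 21-day crizotinib cells and 8.78 in the 21-day control, a difference of -1.32. In the 24-hour pair PTN measured 8.68 with crizotinib and 8.40 with vehicle. PTPRZ1, the receptor phosphatase that pleiotrophin binds, lay at or below 2.01.

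Among 11 measured kinases that crizotinib binds less strongly, AXL was the 1 at least 1.5-fold lower in both pairs. Of the features above the filter in both pairs, 4.15% were lower in both at that size. AXL, a receptor kinase known for bypass of targeted drugs, measured 9.62 in 24-hour crizotinib cells and 10.31 in vehicle cells. In 21-day crizotinib cells it measured 9.17, against 10.16 in the 21-day control. The drug arrays lay below the drug-free arrays by at least 0.53, and the limma change over both pairs was -0.84 (SE 0.20, adjusted p = 0.206). INSR, the insulin receptor, measured 5.96 in 24-hour crizotinib cells and 5.35 in vehicle cells, and 5.96 in 21-day crizotinib cells and 5.29 in the 21-day control. It was the 1 kinase of the list at least 1.5-fold higher in both pairs, as were 2.82% of features above the filter in both. JAK2, a cytokine receptor kinase, was 1.08 higher at 24 hours and at -0.02 at 21 days. At 21 days TYRO3, a relative of AXL, was at -0.91, TEK, the angiopoietin receptor, at -0.86 and the kinase SLK at -0.69. For TEK the 21-day control stood 1.05 above the vehicle array and alone lay above the level filter, at 5.475. NTRK2, a neurotrophin receptor, differed by -0.02 and -0.07.

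**Figure D4:**
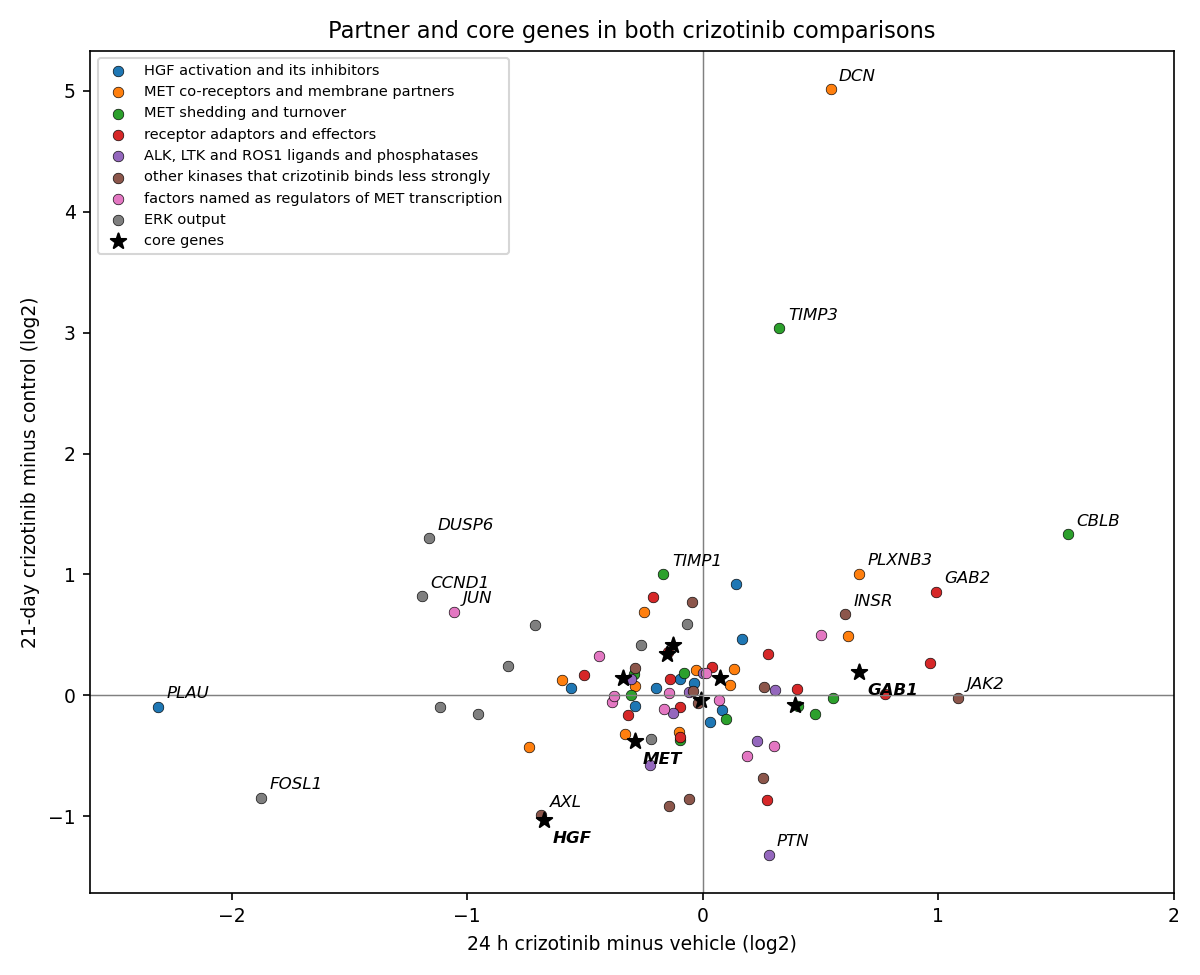
Difference in the 21-day pair (vertical axis, log2) against that in the 24-hour pair (horizontal axis, log2) for the 87 partner genes, coloured by list, and for the 9 measured core genes as stars. CBLB lies high on both axes, at 1.55 and 1.33, HGF and AXL lie low on both, and DUSP6, CCND1 and JUN lie low on the horizontal and high on the vertical axis.

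Of 11 measured transcription regulators named in the control of MET, JUN was the 1 that reached 1.5-fold. JUN, an AP-1 subunit, measured 8.72 in 24-hour crizotinib cells and 9.78 in vehicle cells. After 21 days in crizotinib it measured 10.50, against 9.80 in the 21-day control. HIF1A, the hypoxia factor, differed by 0.07 and -0.04. MITF, the master factor of the melanocyte lineage, differed by 0.50 and 0.50 at levels under the filter.

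Genes that report on ERK, the kinase downstream of these receptors, had opposite medians in the crizotinib pairs: -0.89 at 24 hours and 0.33 at 21 days, beside -0.01 and 0.01 over all features. At 24 hours 7 of 10 were at least 1.5-fold lower and none higher. At 21 days 4 were higher and 1 lower. DUSP6, an ERK phosphatase, measured 7.11 in 24-hour crizotinib cells and 8.28 in vehicle cells, but 10.13 in 21-day crizotinib cells and 8.83 in the 21-day control. The feedback inhibitors SPRY2 and SPRY4 were at -0.71 and -0.83 at 24 hours, and at 0.59 and 0.24 at 21 days. The factor ETV5 was at -0.95 and -0.15, and its relative ETV4 at -1.11 and -0.10. FOSL1, an AP-1 subunit, was lower in both, at -1.88 and -0.85. DUSP4, another phosphatase, was at -0.07 and 0.59. The pairs differ in dose as well as time, so neither can be told apart from the other.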

How the data were processed

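Biotin-labelled RNA of U87 cultures was hybridised to Affymetrix whole-transcript arrays, 1 array for each condition. The authors deposited log2 values per gene. The submitters' processing notes list RMA (background correction, quantile normalization and probe summary), affy (1.36.1) and R (2.15.1). Detection calls were not used here, and the genome build was not given in the sources used here. Features carry an Entrez number. Of 23786, 22458 had 1 symbol, none had several and 1328 were unnamed here.

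Differences were computed within each pair, on the log2 scale. Models were fitted with limma (version 3.58.1, R version 4.3.3; lmFit, eBayes, Benjamini-Hochberg over all features tested, threshold 0.05). One model took both drug-free arrays as 1 group, assuming that lone crizotinib arrays vary like them, and the other estimated a drug effect shared by the pairs, adjusting for pair. A single residual degree of freedom is left in either. In the first model it is the difference between the drug-free arrays, which holds culture time as well. In the second it is the disagreement between the pairs, which differ in dose and time. The eBayes prior, drawn from all features, adds 4.17 and 4.11 degrees of freedom. The p-values therefore do not measure a spread of replicate cultures. The fits were tried on simulated data with a single noise level, the same change in both drug arrays and none between the drug-free arrays. Of planted 2-fold changes, the fit over both pairs recovered 88%. The fits against both drug-free arrays recovered 56% at 24 hours and 54% at 21 days. The drug-free arrays of these data do differ, so the shares do not carry over to them. Alternatives changed the fold, the filter, the scale, the control array and the eBayes prior. The genes and lists were chosen with earlier results of these data known. Genes were named if they were among the 10 core genes, or were list members at least 1.5-fold changed in a crizotinib pair or at the highest or lowest level of their list, or were the 3 closest to MET or HGF over the arrays. A few others of the lists, and the neighbours of ROS1, MET and HGF, were named after their values were seen.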

Additional observations from a re-analysis of the deposited data

Results flagged for a closer look

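Several genes had differences of opposite sign in the 24-hour and the 21-day crizotinib pair. With 1 array per condition, the difference between the pairs was not tested. Among the core genes these were ROS1 at 0.39 and -0.078, HGFAC at -0.34 and 0.15, LTK at -0.13 and 0.42, and MST1R at -0.15 and 0.34, of which ROS1 alone passed the level filter. Some partner genes reached 1.5-fold in both pairs with opposite sign. They were DUSP6 at -1.16 and 1.30, CCND1 (cyclin D1) at -1.19 and 0.82, JUN at -1.05 and 0.69, and SPRY2 at -0.71 and 0.59. The share of all features with opposite signs at that size was not computed, so no weight is given to their number.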

How the results depend on the processing

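The count of core genes at least 2-fold changed was 0 in the 24-hour pair and 1 in the 21-day pair. It was 2 in the 24-hour pair at 1.5-fold (HGF and GAB1). It was 0 in the 21-day pair after quantile normalization anew, where HGF stood at -0.98. With the drug-free array of the other pair as control it was 1 at 24 hours, and 2 at 21 days, ROS1 being the added gene in each. The median difference of the 9 genes kept its sign, but its size was not stable, and 4 of the 9 lay under the level filter on all arrays. At 24 hours it was -0.13 as reported and -0.29 with the drug-free array of the other pair as control. At 21 days it was 0.15 as reported, 0.096 with that exchange, 0.0958 with arrays centred on their medians and 0.0734 after quantile normalization anew. Between the drug-free arrays it was -0.13 as reported and -0.068 with that centring. MET and HGF kept a negative difference in both crizotinib pairs under each of them, from -0.44 to -0.26 and -0.43 to -0.22 for MET, and from -0.69 to -0.44 and -1.27 to -0.98 for HGF. GAB1 kept a positive one, from 0.63 to 0.79 at 24 hours. ROS1 ran from -1.75 to 0.40 at 24 hours and from -0.13 to 2.06 at 21 days, as the drug-free cultures differ in it.

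In limma none of the 5 tested core genes passed the threshold under any of the alternatives run. HGF at 21 days came closest, with arrays centred on their medians, at a change of -1.17 against both drug-free arrays. Calls over all features did move. Without the filter they were 0 higher and 0 lower at both times, with more features tested. With arrays centred on their medians they were 29 higher and 30 lower at 24 hours, and 144 higher and 280 lower at 21 days, against 1, 0, 42 and 135 as reported, and the cause was not tested. With that centring FOSL1 and PLAU at 24 hours and DUSP6 at 21 days passed (adjusted p = 0.0476, 0.035 and 0.0442, limma), and the change of HIF1A over both pairs turned to -0.0045. No replicate could be left out, since each fit has 1 residual degree of freedom.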

Other observations

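The genes that flank MET and HGF were lower in at most 1 of the crizotinib pairs. CAV1, a caveolin next to MET on chromosome 7, differed by -0.20 at 24 hours and 0.04 at 21 days, and CAPZA2, an actin capping gene on the other side, by 0.16 and -0.05. SEMA3C and CACNA2D1 flank HGF among the measured genes. SEMA3C, an axon guidance ligand, differed by 0.05 and 0.80, and CACNA2D1, a calcium channel subunit, by 0.35 and 0.14.

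Of the 10 glial markers, FABP7, a fatty acid binding protein, was the 1 at least 2-fold changed in a crizotinib pair. Of all features past the filter, 5.00% changed as much in the 24-hour pair and 8.05% in the 21-day pair. FABP7 measured 5.50 in 24-hour crizotinib cells and 3.45 in vehicle cells, and 3.07 in 21-day crizotinib cells and 3.36 in the 21-day control. It passed the filter through the 24-hour crizotinib array alone. SOX9, a glial transcription factor, parted the cultures and not the treatments. It measured 6.52 in 21-day crizotinib cells and 6.80 in the 21-day control, and 8.31 in 24-hour crizotinib cells and 8.14 in vehicle cells.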
